A study of Mus musculus with 3 samples.

Results

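The ETS family transcription factors examined here were Ets1, Ets2, Erg, Fli1, Spi1, Spib, Elf1, Elf4, Etv6 and Gabpa, in blood progenitors of Mef2c-deficient and control mice. Their members were every non-control probe whose gene name in the array files was 1 of these 10 symbols, with Spi1 listed under its older symbol Sfpi1. This gave 10 genes of 27670 on the array, with 21 of its 41174 probes: 4 for Ets1, 3 each for Elf1 and Gabpa, 2 each for Erg, Fli1, Elf4 and Etv6, and 1 each for Ets2, Spi1 and Spib. All 21 were well above background and unsaturated in all 6 libraries, so all 21 passed the filter on dim probes.

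Each of 3 mouse 2-colour Agilent arrays carried cDNA of 1 mutant and 1 control sample. Mutants had Mx1-Cre, a recombinase under an interferon-inducible promoter that is active in many tissues, together with floxed Mef2c alleles. Controls had the floxed alleles and no Cre, so an effect of Cre and the loss of Mef2c cannot be told apart. Mice of both groups were injected on 4 days in a row with poly(I:C), at 250 µg, to induce the promoter through interferon, and bone marrow was taken 2 days after the last one. From each sample 15000 cells negative for lineage markers and positive for c-kit and Sca-1, called multipotent progenitors by the submitters, were sorted. The labels give no age, sex or strain. Nor do they tell whether replicates were separate animals, so the p-values cover the spread between these samples, which may be technical.

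ETS factors share a DNA-binding domain that recognises a GGAA core, and they differ in the bases they prefer around it and in their partners. In blood formation, Spi1 encodes PU.1, which is needed for myeloid and B cell development. Erg and Fli1 act in stem cells and megakaryocytes, Ets1 acts in T, B and NK cells, and Gabpa is the DNA-binding subunit of GABP, which acts on many housekeeping and mitochondrial genes. Mef2c is itself a transcription factor, and the series asks how it bears on lymphoid against myeloid fate.

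Mutant cDNA was in Cy3 and control cDNA in Cy5 on each array per the labels, with no dye swap, so dye and genotype cannot be told apart. The deposited ratio column of array 2 runs opposite to those of arrays 1 and 3, and whether that array was a dye swap is not known. Signed values below follow the labels, and values with the sign of array 2 turned stand beside them where a result turns on it. On arrays 1, 2 and 3 the log2 ratio of Mef2c was 0.08, 0.10 and -0.96 by the probe that was above background in every library. A dimmer Mef2c probe exceeded background clearly in only 2 mutant libraries and 1 control library, so its ratios bear on no loss. Which exons were floxed is not stated in the labels, and a probe outside that part checks nothing. All 10 marker genes of the sorted cells were well above background in all 6 libraries. Control library 1 stood apart in a list of 7 early response genes such as Fos and Egr1, with a log2 summed level of 18.4. There the mutant libraries had 13.2 to 14.8 and the lowest control library 14.0. The median log2 ratio of these genes was -5.86, -0.58 and -0.05 on arrays 1, 2 and 3, so array 2 was also lower. Control library 1 was also the highest in 8 granulocyte markers, at 16.6, against 13.8 to 14.1 in mutant libraries and 13.8 in the lowest control library. The part of this library in the ratios of array 1 was not tested, and means without array 1 are given for the probes it moves most. In sorted pools, fewer cells of a type and less RNA per cell cannot be told apart.

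As labelled, every probe of Ets1 and of Erg was lower in mutants than in controls on all 3 arrays. Of 3 Gabpa probes, 2 were higher on all 3. No other gene with more than 1 probe had all its probes on 1 side on every array. Turning the sign of array 2 ends each of these agreements by construction. Spi1 and Spib lay close to 0. None of these differences passed the test over the whole array. By limma, 0 of 21 member probes had an adjusted p under 0.05, and neither did any of 32897 tested probes (0%). The smallest adjusted p was 0.543, which is that of the Ets1, Erg, Elf4 and Gabpa probes given below. An exact sign-flip permutation test over 3 arrays cannot go below a 2-sided p of 0.25.

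**Figure D1:**
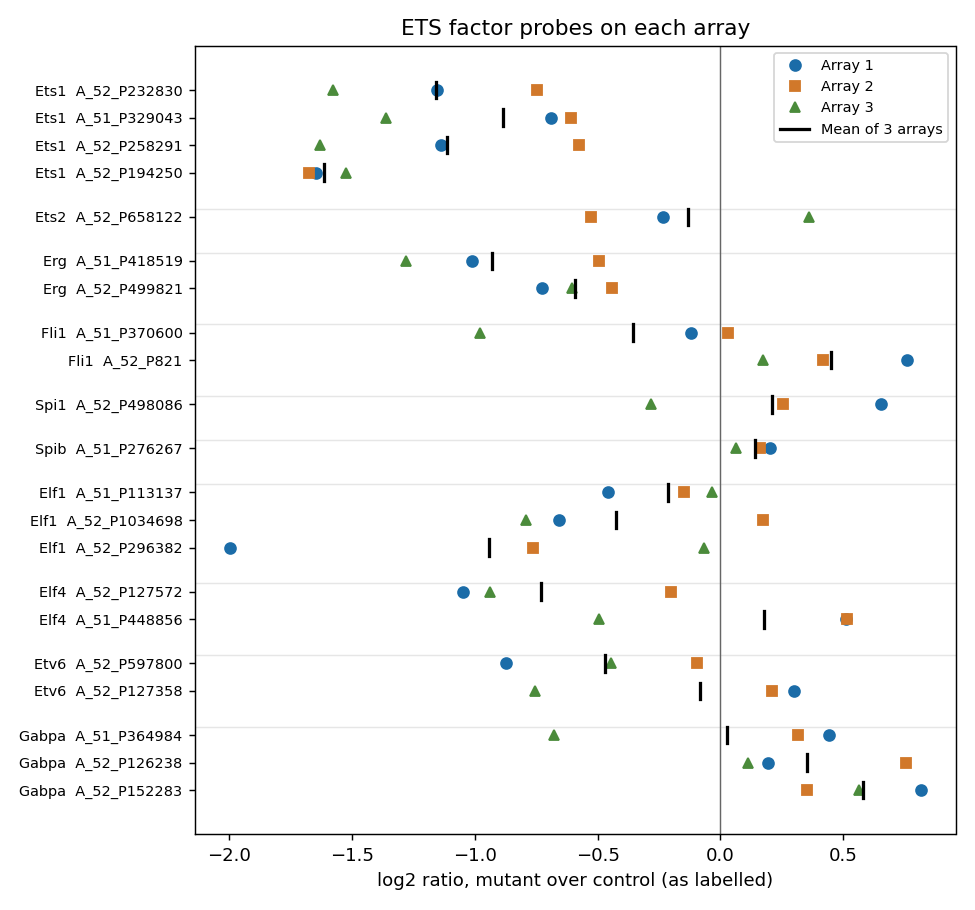
Log2 ratio of mutant over control for each of the 21 ETS probes on arrays 1, 2 and 3 (symbols) with the mean of the 3 arrays (black bars), grouped by gene. All symbols of the 4 Ets1 and 2 Erg probes lie left of 0, those of 2 Gabpa probes lie right of 0, and most other genes have symbols on both sides.

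As labelled, 14 of the 21 member probes had a mean log2 ratio below 0 and 7 above, with a median of -0.36, beside -0.01 over all tested probes. Of all tested probes, 51.1% had a mean below 0. At an unadjusted p under 0.05, 7 member probes were lower and 1 was higher in the mutant, where the whole array had 4.21% lower and 4.93% higher. The 7 were the 4 Ets1 probes, both Erg probes and 1 Elf4 probe, and the other was a Gabpa probe. Across the array the split at that p was 1622 higher and 1384 lower. It was 799 higher and 2744 lower with median centring in place of loess, and 1029 and 1823 with the scanner's own processed signals. Median centring put the median of all probes at -0.15 and that of the members at -0.51, so that the members lay about as far below all probes as with loess.

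On single arrays the members were lower more often on arrays 1 and 3 than on array 2. Of 21 probes, 13 lay below 0 on array 1, 11 on array 2 and 16 on array 3, with medians of -0.46, -0.10 and -0.60. The medians of all tested probes on these arrays were -0.02, -0.01 and -0.01. The probes belong to 10 genes, so the probes are not independent of each other. Ratios ran lower on all 3 arrays for 10 member probes, against 18.0% of the array, and higher for 4, against 16.0%. The remaining 7 were mixed. The 3 mutant signals lay below all 3 control signals for 5 member probes, beside 9.92% of the array, and above them for 2, beside 7.52%. These counts follow the labels. None of the probes in them would keep its place with array 2 turned, and such counts were not computed in that direction.

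**Figure D2:**
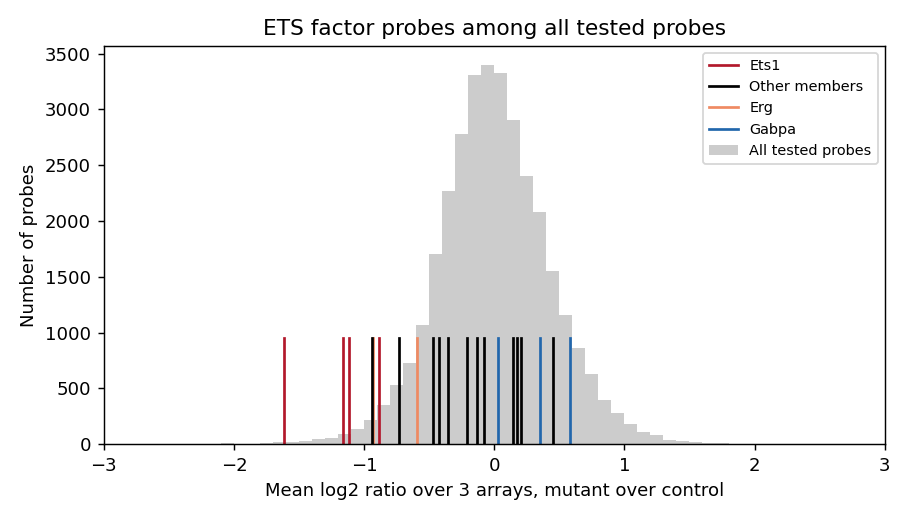
Histogram of the mean log2 ratio (mutant over control, 3 arrays) of all 32897 tested probes, with a vertical line at the mean of each ETS probe (line height has no meaning). The Ets1 lines stand in the left tail between -1.62 and -0.89, whereas the Gabpa lines run from 0.03 to 0.58.

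Ets1, which encodes a transcription factor of T, B and NK cell development, had the lowest mean of the 10 genes. The average log2 ratio of its 4 probes was -1.16, -0.90 and -1.52 on the 3 arrays in order, a mean of -1.19 ± 0.31 (SD, n = 3). The probe A_52_P194250 had log2 signals of 9.59, 9.14 and 9.72 in mutant libraries 1, 2 and 3, against 11.24, 10.82 and 11.24 in the controls of the same arrays. All mutant values lay below all control values, and the ratios of -1.65, -1.67 and -1.52 were nearly the same on each array. Their mean of -1.62 ± 0.08 (SD, n = 3) corresponds to a level 3.06-fold higher in controls. Its unadjusted p by limma was 0.000355 and its adjusted p was 0.543.

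The brightest Ets1 probe, A_52_P232830, had log2 signals of 10.77, 10.20 and 10.55 in mutants, against 11.92, 10.95 and 12.12 in controls. Here too the groups did not overlap, although the difference on array 2 was the smallest. The mean ratio was -1.16 ± 0.41 (SD, n = 3; limma, adjusted p = 0.543). A_51_P329043, designed on another Ets1 sequence record (X55787), starts 10 bases from that probe and shares 50 bases with it, so these probes count as 1 site. It had signals of 10.73, 9.46 and 10.21 in mutants, against 11.42, 10.06 and 11.57 in controls, with a mean ratio of -0.89 ± 0.41. The groups overlapped for this probe, since the mutant sample of array 1 was above the control of array 2, while each array on its own had the mutant lower. A_52_P258291, which starts 1052 bases from the brightest probe, had signals of 8.96, 10.14 and 10.20 in mutants, against 10.10, 10.71 and 11.83 in controls. Its mean ratio was -1.11 ± 0.53, and the groups overlapped slightly. The probe with the near-constant ratio lies 3034 bases from the brightest one, so the 4 probes stand for 3 separate sites of the gene. Their means spanned 0.73 on the log2 scale, beside an average SD between arrays of 0.36.

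With the sign of array 2 turned, the Ets1 average was -0.59 ± 1.31 (SD, n = 3) and no longer exceeded the spread between arrays, since turning 1 array ends their agreement by construction. The probe means were then between -0.73 and -0.48. Without array 1 the 4 probes had means of -1.16, -0.98, -1.10 and -1.60, in the order brightest probe, its overlapping neighbour, A_52_P258291 and A_52_P194250. Leaving out array 1 removes its mutant library as well, and the part of the control library that stood apart was not tested. Of 7 T cell markers, 6 were well above background in all mutant libraries and 7 in all control libraries. Their log2 summed level was 12.4 to 12.7 in mutants and 12.9 to 13.1 in controls, and all 7 mean ratios were below 0. Over all genes 12134 of 22213 were below 0. By limma, 1 of the 7, Cd3g, was lower at an unadjusted p under 0.05, where 4.58% of all genes were. Cd4 made up the largest part of the sum, at 11.4 to 11.9 in mutants and 12.0 to 12.2 in controls. The list median was -0.41 as labelled and -0.19 with array 2 turned. No share over the array was computed for summed lists. The B cell markers summed to 13.3 to 14.1 in mutants and 13.5 to 13.7 in controls, which overlap. The part of such cells in the Ets1 result was not tested.

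Ets2, a broadly expressed relative of Ets1 downstream of MAP kinase signalling, did not run with it. Its probe had log2 ratios of -0.23, -0.52 and 0.36 and a mean of -0.13 ± 0.45 (SD, n = 3). Log2 signals were 10.06, 9.18 and 9.74 in mutants and 10.29, 9.71 and 9.38 in controls, which overlap. The mean was 0.22 with array 2 turned and -0.08 without array 1.

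Erg, a regulator of stem cell maintenance, gave the second lowest gene average, -0.76 ± 0.26 (SD, n = 3), with -0.87, -0.47 and -0.94 on the 3 arrays. A_51_P418519 had log2 signals of 13.26, 13.68 and 13.04 in mutants, against 14.27, 14.17 and 14.32 in controls. The mean ratio was -0.93 ± 0.40, a level 1.90-fold higher in controls (limma, adjusted p = 0.543). A_52_P499821, whose start is 713 bases away, had signals of 13.03, 13.41 and 13.31 in mutants, against 13.75, 13.85 and 13.92 in controls, and a mean ratio of -0.59 ± 0.14. The groups did not overlap for either probe, and the spread of the control signals was narrower than that of the mutant signals. With array 2 turned, the Erg average was -0.45 ± 0.79. Without array 1 the probe means were -0.89 and -0.52.

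Marker genes of the sorted cells also differed between the groups, in both directions. Of these 10 genes, 7 had a mean ratio below 0, and at an unadjusted p under 0.05 there were 2 lower and 2 higher. Over all genes 12134 of 22213 lay below 0, and at that p 4.58% were lower and 4.34% higher. Procr, a surface receptor of stem cells, had -1.57 ± 0.91 (SD, n = 3) and the progenitor receptor gene Flt3 had -1.15 ± 0.12. Slamf1, which encodes the stem cell antigen CD150, had 1.16 ± 1.05, and Ly6a, which encodes Sca-1 itself, had 0.82 ± 0.27. The same 4 means were -0.11, -0.32, -0.36 and 0.48 once array 2 was turned. The log2 summed level of the 10 markers was 16.4 to 16.7 in mutants and 16.7 in each control, which overlap. The part of the makeup of the sorted pool in the Erg result was not tested.

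**Figure D3:**
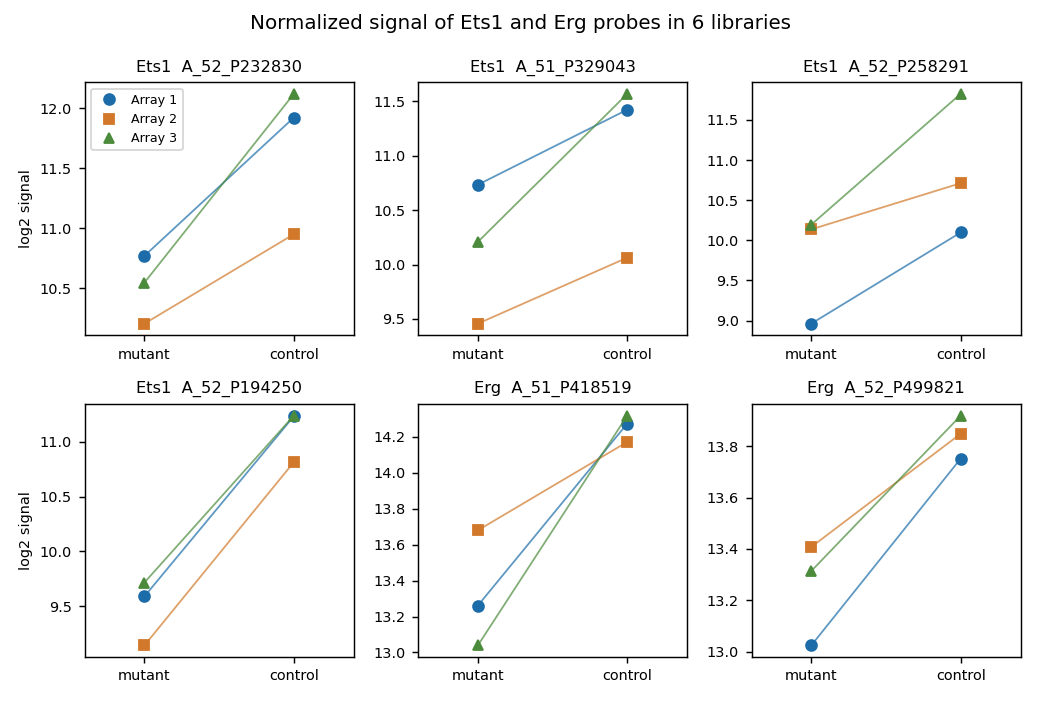
Normalized log2 signal of the 4 Ets1 and 2 Erg probes in the mutant (left) and control (right) library of each array, with lines joining the libraries of 1 array. Every line goes up from mutant to control, and the control points of A_52_P194250 (10.82 to 11.24) stand clear of the mutant points (9.14 to 9.72).

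Erg has several annotated transcription starts. Promoter windows of the 250 bases before the start, from RefSeq (GRCm38.p6), were available for 7 of the 10 genes, with 11 windows in all and none for Ets1, Fli1 or Spi1. They were searched on both strands for CCGGAA, the high-affinity form of the ETS core that GABP prefers, for GAGGAA, the form typical of PU.1, and for the MEF2 consensus. The MEF2 consensus was found in 1 of 11 windows, beside 2.92% of 32851 windows of all genes. That window belongs to 1 of 3 Erg starts, at chr16:95530366-95530615 on the minus strand, and is shown because Mef2c is the deleted factor. It was chosen after the expression values were seen, as was the Gabpa window below. Capitals mark the match, which lies 16 to 7 bases before the start and reads the same on both strands.
Erg promoter: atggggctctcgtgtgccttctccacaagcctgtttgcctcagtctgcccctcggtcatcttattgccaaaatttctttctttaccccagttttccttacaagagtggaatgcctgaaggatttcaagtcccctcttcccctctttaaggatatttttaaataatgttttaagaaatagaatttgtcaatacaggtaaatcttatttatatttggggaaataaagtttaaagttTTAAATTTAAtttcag
The match is a description of these letters and not evidence of a binding site. The array does not tell which Erg start was used.

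Fli1, the closest relative of Erg and a regulator of megakaryocytes, had probes that disagreed. A_51_P370600 had log2 ratios of -0.12, 0.03 and -0.98, with signals of 9.56, 10.13 and 9.02 in mutants and 9.68, 10.10 and 10.001 in controls. A_52_P821 had ratios of 0.76, 0.42 and 0.17, with signals of 9.54, 8.62 and 8.94 in mutants and 8.79, 8.20 and 8.77 in controls. Their means of -0.36 ± 0.55 and 0.45 ± 0.29 (SD, n = 3) lay 0.81 apart, beside an average SD between arrays of 0.42, and the groups overlapped for both. The gene average was 0.05 ± 0.39, and the mean of A_52_P821 without array 1 was 0.30. Fli1 and Ets1 are neighbours on chromosome 9, as are Erg and Ets2 on chromosome 16. Neither Fli1 nor Ets2 had all its ratios below 0, unlike the gene beside it.

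Spi1 encodes PU.1, whose dose helps set the choice between myeloid and B cell fates. Its probe had log2 signals of 12.55, 12.78 and 12.37 in mutants, against 11.89, 12.52 and 12.65 in controls. The mutant was higher on arrays 1 and 2 and lower on array 3, with ratios of 0.65, 0.25 and -0.28. The mean was 0.21 ± 0.47 (SD, n = 3), with a 95% interval from -0.45 to 0.87, so these arrays leave room for a difference of that size in either direction. Without array 1 the mean was -0.01, and with array 2 turned it was 0.04.

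Spib encodes Spi-B, a PU.1 relative of B cells and plasmacytoid dendritic cells. Its log2 signals were 8.66, 8.81 and 8.73 in mutants, against 8.46, 8.65 and 8.67 in controls. The ratios of 0.20, 0.16 and 0.06 were all above 0 and close together, with a mean of 0.14 ± 0.07 (SD, n = 3). The groups nevertheless overlapped, and the fit, which draws on the spread of all probes, gave a 95% interval from -0.38 to 0.67.

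Gabpa was the gene with the highest average, 0.32 ± 0.28 (SD, n = 3), with 0.48, 0.48 and 0.00 on arrays 1, 2 and 3. A_52_P152283 had log2 signals of 8.02, 7.59 and 7.82 in mutants, against 7.20, 7.24 and 7.25 in controls. The control libraries lay within a narrow band and all mutants were above it. The mean ratio of 0.58 ± 0.23 corresponds to 1.49-fold (limma, adjusted p = 0.543). A_52_P126238 had 10.67, 10.79 and 10.64 in mutants, against 10.48, 10.04 and 10.52 in controls, again without overlap, and a mean of 0.35 ± 0.35. The brightest Gabpa probe, A_51_P364984, ran otherwise. It had 12.36, 11.97 and 10.98 in mutants, against 11.92, 11.66 and 11.65 in controls, with ratios of 0.44, 0.32 and -0.68 and a mean of 0.03 ± 0.61, or -0.18 without array 1. With array 2 turned, the gene average was 0.00 ± 0.48, so the Gabpa average depended on the direction of that array.

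**Figure D4:**
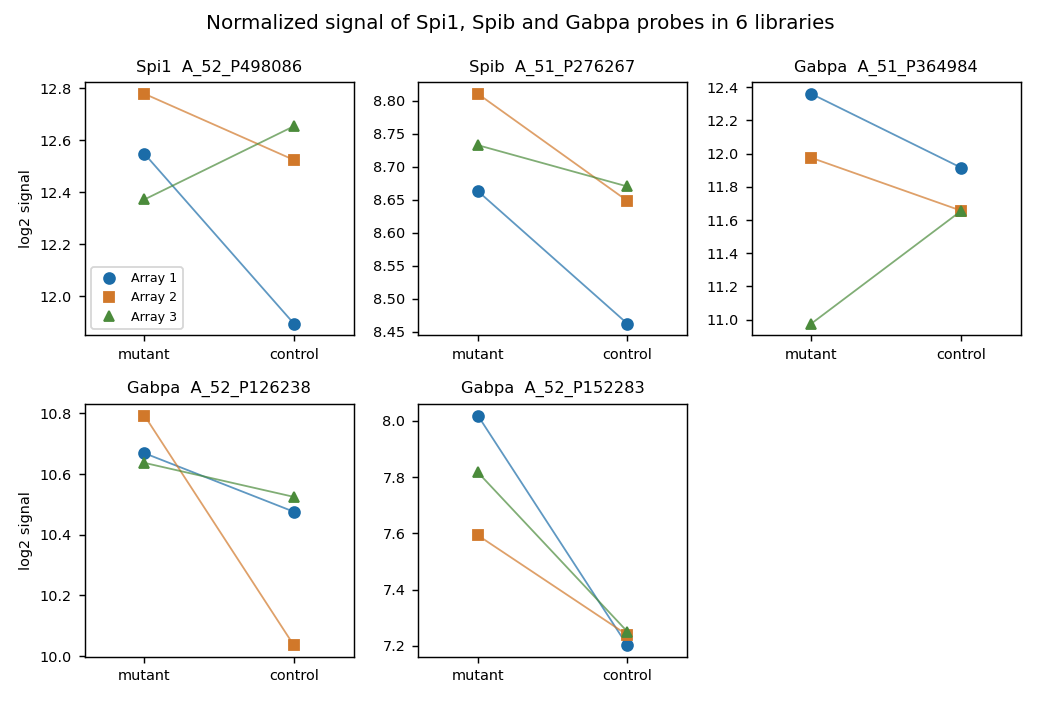
Normalized log2 signal of the Spi1, Spib and 3 Gabpa probes in the mutant (left) and control (right) library of each array, with lines joining the libraries of 1 array. All 3 lines go down from mutant to control for Spib, A_52_P126238 and A_52_P152283, while array 3 runs the other way for Spi1 and A_51_P364984.

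The Gabpa promoter window is shown because it was the 1 of 11 member windows that held CCGGAA, which occurred in 12.0% of windows of all genes. It also held GAGGAA, as did 2 Elf4 windows (3 of 11 in all, beside 23.3% of all windows). Capitals mark GAGGAA, 113 to 108 bases before the start, and CCGGAA, which reads TTCCGG on the strand shown, 92 to 87 bases before the start. The window lies at chr16:84834874-84835123 on the plus strand, next to the gene Atp5j.
Gabpa promoter: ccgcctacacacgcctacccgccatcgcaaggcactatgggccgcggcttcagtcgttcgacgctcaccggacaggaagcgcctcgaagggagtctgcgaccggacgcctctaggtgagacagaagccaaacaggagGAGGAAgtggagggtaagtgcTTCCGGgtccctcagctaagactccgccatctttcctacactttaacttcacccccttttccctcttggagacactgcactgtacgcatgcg
These letters say nothing about which ETS factor, if any, was bound in the sorted cells.

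Elf1, an activator of lymphoid and blood vessel genes, had a gene average of -0.53 ± 0.44 (SD, n = 3), and its probes differed by site. A_52_P296382, designed on the record BC053914, had log2 signals of 11.47, 12.04 and 11.95 in mutants, against 13.47, 12.80 and 12.02 in controls. Its ratios were -2.00, -0.76 and -0.07, so the size of its mean of -0.94 ± 0.98 came mainly from array 1, whose control was the library that stood apart. Without array 1 the mean was -0.41. The probe starts 34906 and 43479 bases from the other Elf1 probes. Those had ratios of -0.46, -0.15 and -0.03 (A_51_P113137, mean -0.21 ± 0.22, or -0.089 without array 1) and of -0.66, 0.17 and -0.79 (A_52_P1034698, mean -0.43 ± 0.52). The mutant and control signals overlapped for all 3 Elf1 probes.

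Elf4, a factor that bears on whether stem cells leave quiescence and that acts in NK cells, had probes of opposite sign. A_52_P127572 had log2 signals of 10.17, 10.78 and 10.37 in mutants, against 11.22, 10.99 and 11.31 in controls. The groups did not overlap, and the mean ratio was -0.73 ± 0.46 (SD, n = 3; limma, adjusted p = 0.543). Its mean was -0.57 without array 1. With array 2 turned it was -0.59, with an unadjusted p by limma of 0.128. A_51_P448856, 7302 bases away, had ratios of 0.51, 0.51 and -0.49 and a mean of 0.18 ± 0.58, or 0.011 without array 1, with overlapping groups. The means lay 0.91 apart, the widest span within a gene, and the gene average was -0.28 ± 0.44.

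Etv6, a repressor needed by adult stem cells, had a gene average of -0.28 ± 0.33 (SD, n = 3). A_52_P597800 had log2 signals of 12.62, 13.46 and 12.96 in mutants, against 13.49, 13.55 and 13.40 in controls, and ratios of -0.87, -0.10 and -0.44. Each array had the mutant lower, although the mutant of array 2 exceeded the control of array 3. The other probe, A_52_P127358, had ratios of 0.30, 0.21 and -0.76 and a mean of -0.08 ± 0.58. Without array 1 both probes had a mean of -0.27.

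**Figure D5:**
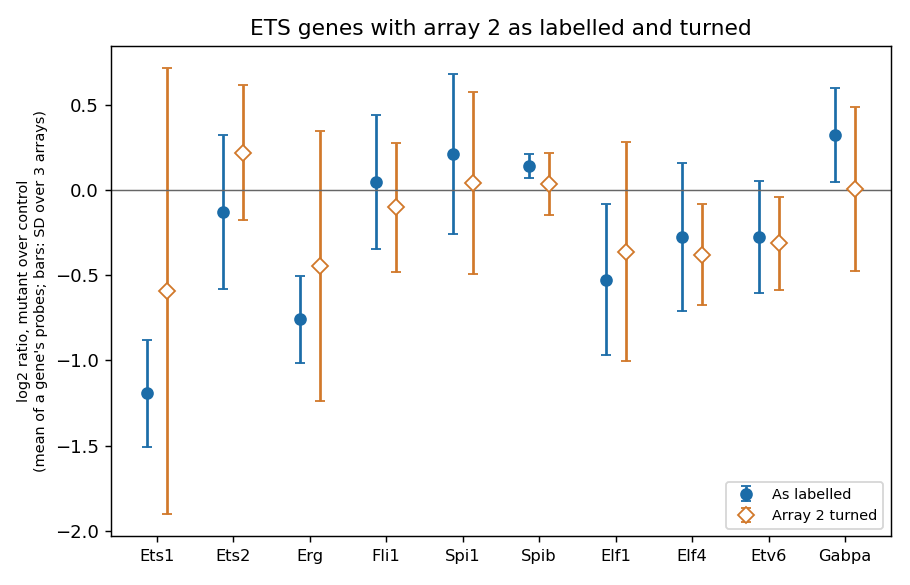
Mean log2 ratio of mutant over control for each ETS gene (average of its probes, bars SD over 3 arrays), as labelled (filled) and with the sign of array 2 turned (open). Ets1 moves to -0.59 ± 1.31 from -1.19 ± 0.31, Gabpa to 0.00, and Ets2 and Fli1 change sign.

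Among the 10 gene averages, the order as labelled ran from Ets1 and Erg at the low end through Elf1, Etv6, Elf4 and Ets2 to Fli1, Spib, Spi1 and Gabpa. Neighbours in that order lay within the SD of at least 1 of the pair, except Ets1 and Erg, whose averages lay farther apart than either SD. With array 2 turned, 0 member probes had an unadjusted p under 0.05. Over the whole array, 469 of 32897 tested probes were higher and 637 lower at that p with array 2 turned. At so small a share, the 0 is no result about the members.

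The genes most like Ets1 in their pattern were taken as those with the smallest root mean square difference from its brightest probe, over 6 libraries after subtraction of each probe's mean, among 23508 other probes well above background throughout. They were the tetraspanin gene Tspan6 at 0.13, the membrane repair gene Myof at 0.24 and Plek, a protein kinase C substrate of platelets and leukocytes, at 0.25 on the log2 scale. For Spi1 they were the transporter gene Slc16a4 at 0.05, the calpain subunit gene Capns1 at 0.05 and the muscle acetylcholine receptor subunit gene Chrne at 0.07. With 6 libraries and that many candidates, close patterns are found for any probe, and nothing about function follows from them.

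Other ETS genes mostly had mean ratios below 0. Of 16 on the array, 14 had a tested probe. Their median log2 ratio was -0.29, beside -0.04 over 22213 genes, with 2 above 0 and 12 below. Of the 22213 genes, 12134 lay below 0, which stands beside the counts of each list that follows. At an unadjusted p under 0.05, 2 of the 14 were lower and 0 higher, where 4.58% of all genes were lower and 4.34% higher. The 2 were Elk4 and Etv1, and Etv1 passed the filter through the control libraries alone. Its place in that count, among the 12 below 0 and in the median therefore shows nothing. With only probes well above background in every library, which leaves Etv1 out, the median was -0.26. The log2 summed level of the 14 genes was 14.9 to 15.2 in mutants and 15.3 to 15.7 in controls, which do not overlap. Control library 1, which stood apart, was the highest of these libraries. The sum is carried mainly by the brightest genes, Erf, Elf2 and Elk3, at 14.0, 13.6 and 13.5 in that library, and so does not describe all 14. Of single probes over the array, 9.92% had all mutant signals below all control signals. No such share was computed for summed lists. The median was -0.14 without array 1, -0.18 with array 2 turned and -0.49 with median centring.

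Elk4, a serum response factor partner, had log2 signals of 9.95, 10.07 and 10.68 in mutants, against 11.12, 10.96 and 11.13 in controls, and a mean ratio of -0.83 ± 0.36 (SD, n = 3). With array 2 turned its mean was -0.24. Etv1, a factor of the PEA3 group, was not well above background in any mutant library and was so in all 3 controls. Its ratios of -0.19, -1.37 and -0.99 rest on these dim mutant signals, and their mean was -0.85 as labelled but 0.06 with array 2 turned. Spic, which acts in red pulp macrophages, had -0.77 ± 0.70, and the repressor gene Erf had -0.61 ± 0.45. Neither of these passed even the unadjusted threshold.

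Partners and cofactors of ETS proteins had a median log2 ratio of -0.25 over 18 genes, with 7 above 0 and 11 below. The median was -0.09 without array 1 and -0.11 both with array 2 turned and with the average of each gene's probes. At an unadjusted p under 0.05, 1 of 18 was lower and 0 higher, which is near the 4.58% of all genes that were lower and is no result about the partners. The 1 was Lmo2, a bridging protein of the Tal1 complex, with log2 signals of 14.18, 14.88 and 14.30 in mutants, against 15.44, 15.18 and 15.19 in controls. Its mean ratio was -0.82 ± 0.48 (SD, n = 3), or -0.61 with array 2 turned, and mutants lay below all controls. Tal1 itself had -0.58 ± 0.35, and with array 2 turned 0.06.

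Known targets of PU.1 showed no common direction, with a median of -0.03 over 18 genes, 8 above 0 and 10 below, and 0.017 without array 1. At an unadjusted p under 0.05, 2 were higher and 2 lower, where 4.34% of all genes were higher and 4.58% lower. The higher ones were Fcgr1, a high-affinity IgG receptor, at 1.14 ± 0.21 (SD, n = 3), and Adgre1, which encodes the macrophage antigen F4/80, at 1.002 ± 0.20. The lower ones were Flt3, at the value given above, and Itgam, which encodes the Mac-1 chain used in the lineage stain, at -1.05 ± 0.23. Macrophage markers, of which Adgre1 is 1, summed to 13.8 to 14.1 on the log2 scale in mutants and 13.5 to 13.7 in controls. No share over the array was computed for summed lists. The sum is carried mainly by Csf1r, which is also in the PU.1 list, and Cd68. Of 7 tested markers, 5 had means above 0 and 2 below. By limma, only Adgre1 had an unadjusted p under 0.05. The part of macrophages in these values was not tested. With array 2 turned the 4 means were 0.54 for Fcgr1, 0.18 for Adgre1, -0.32 for Flt3 and -0.35 for Itgam.

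Targets of ERG and FLI1 in megakaryocytes and endothelium had a median log2 ratio of -0.29 over 11 genes, with 1 above 0 and 10 below. Over all genes 12134 of 22213 lay below 0. At an unadjusted p under 0.05 there were 0 of the 11, where 4.58% of all genes were lower and 4.34% higher. That 0 is no result about these targets. The angiopoietin receptor gene Tek, the 1 above 0, had 0.59 ± 0.41 (SD, n = 3), and the platelet glycoprotein gene Gp1ba had -0.46 ± 0.16. The median was -0.05 with array 2 turned. Megakaryocyte markers summed to 13.3 to 13.7 in mutants and 13.3 to 14.0 in controls, and endothelial and stromal markers to 13.0 to 13.3 and 13.2 to 13.4, both overlapping.

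Targets of GABP had a median of 0.29 over 12 genes, with 8 above 0 and 4 below, and again 0 at an unadjusted p under 0.05. With 4.34% of all genes higher and 4.58% lower at that p, the 0 of 12 is no result about them. The median was 0.14 without array 1, 0.16 with median centring and 0.16 with array 2 turned. Tfb2m, a mitochondrial transcription factor, had 0.47 ± 0.35 (SD, n = 3), while the coactivator gene Crebbp, also counted among the cofactors above, had -0.50 ± 0.42. Values on single arrays gave medians of 0.39, 0.21 and -0.21, so array 3 lay opposite to arrays 1 and 2, as it did for the brightest Gabpa probe. All 5 lists had 0 genes with an adjusted p under 0.05.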

How the data were processed

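Spot intensity values in the deposited scanner files are linear, and, per the file headers, were written by Feature Extraction 9.5.1.1. Processed signals and a log10 ratio (Cy5 to Cy3) stand beside them, per the file headers. A second deposited table holds the authors' log2 ratios. Their normalization is not stated in the sources used here, and the submitters' processing notes name limma. Against the scanner's ratio, its columns correlated at -0.947, 0.935 and -0.939 on arrays 1, 2 and 3.

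Mean foreground and median background intensities were corrected by normexp (offset 50) and normalized by loess, with control spots at weight 0. Outlier spots (300, 331 and 252) were left out. Single channels were normalized by Aquantile. Probes had to exceed background clearly on at least 2 arrays in 1 channel. The 32897 that did were tested with limma 3.58.1 in R 4.3.3 (intercept only, Benjamini-Hochberg at 0.05). The fit was also run on simulated independent ratios with planted changes. That run checks the code only and bears on neither the dye nor the agreement between arrays. Per library, 73.4% to 80.4% of probes passed the scanner's background test. Ratios of different arrays correlated at 0.29, 0.10 and -0.01 (pairs 1 and 2, 1 and 3, 2 and 3; 32867 probes). All 3 arrays lay on 1 slide, so slide could not be a block. The number of arrays limits the precision.

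All probes of the 10 genes are named. Of the other ETS genes those at an unadjusted p under 0.05 are named, filled to 4, and of each other list up to 4, filled to 2. List genes are represented by their brightest probe. Members and lists were chosen with earlier results of these data known. Distances between probes come from the array's own annotation, whose build is not given there. Alternatives were other background and normalization choices, filters, probe rules, array 2 turned, an unpaired fit and leaving out each array. Another was the authors' ratios, with the sign of each column set to follow the scanner's ratio.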

Additional observations from a re-analysis of the deposited data

How the results depend on the processing

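No probe was called at an adjusted p under 0.05 under any of the 13 alternatives, and the lowest adjusted p of a member probe was 0.401, with median centring. At an unadjusted p under 0.05 the array-wide counts were 1622 higher and 1384 lower as reported. Higher counts were 799 with median centring, 1029 with processed signals, 1069 with 1 probe per gene, which tests 22213 probes, and 469 with array 2 turned. Lower counts were 2744 with median centring and 637 with array 2 turned. Leaving out 1 array gave 851 (without array 1) to 2256 higher and 762 (without array 1) to 1556 lower. An unpaired fit, with no replicate block, gave 1720 higher and 1744 lower, and 6 lower and 1 higher among the members. With median centring 4 member probes lay above 0 in place of 7. The median of ERG and FLI1 targets was -0.048 with array 2 turned. Of 262 member values, 247 kept their sign and 15 reversed, and 13 of the 21 probes never reversed, all Ets1 and Erg probes among them. Changing the filter on dim probes, taking 1 probe per gene or dropping the replicate block left each probe's mean as it was. Those values could not reverse. Every Ets1 and Erg probe was lower on every array, so leaving out 1 array or averaging a gene's probes could not reverse these either. Their constant sign was thus largely fixed in advance. The authors' ratios were also an alternative, with each column's sign set to follow the scanner's ratio. They could therefore not test the direction of array 2. Ets2 became 0.22 with array 2 turned, and -0.38 to 0.066 without 1 array. The probe Fli1 A_51_P370600 became 0.048 in the average of probes. Spi1 was -0.014 to 0.45 without 1 array, and Spib -0.10 with median centring. Elf4 A_51_P448856 became -0.048 with median centring, -0.28 in the average of probes and -0.17 with array 2 turned. Etv6 A_52_P127358 was -0.27 to 0.25 without 1 array. Gabpa A_51_P364984 became -0.075 with median centring, -0.16 with processed signals, -0.18 with array 2 turned, and -0.18 to 0.38 without 1 array. Gabpa A_52_P126238 became -0.15 with array 2 turned. The cause was not tested. Member probes at an unadjusted p under 0.05 were 4 to 6 lower and 0 higher without 1 array.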
